A study of Mus musculus with 8 samples.

Results

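Gene expression and T cell receptors of CD8 T cells from MC38 tumours were compared between mice given a low dose of long-acting IL-7 alone and mice given the same dose followed by a T cell engager. The members were barcodes of the second experiment of the series in which 500 genes or more were detected and mitochondrial genes gave less than 10% of the UMIs (unique molecular identifiers, 1 per captured RNA molecule). They also had at least 1 UMI of Cd8a or Cd8b1, at least 1 of Cd3d, Cd3e or Cd3g, none of Cd4, and at most 1 of the macrophage genes Lyz2, C1qa, C1qb and C1qc. This gave 7209 of 12560 barcodes after IL-7 alone and 10108 of 11501 after the combination, or 17317 of the 36011 barcodes in the series. All mice were wild type C57BL/6 with palpable tumours of MC38, a mouse colon carcinoma line, and all received rhIL-7-hyFc, an Fc-fused recombinant human IL-7, subcutaneously at 1.25 mg/kg. The combination group also received an anti-mPD-L1 and anti-CD3ε bispecific T cell engager intravenously, which began 3 days after rhIL-7-hyFc per the labels. Tumours were taken 24 hours after the last treatment per the labels, whose wording leaves the engager schedule unclear and does not say whether the tumours of both groups were taken the same number of days after rhIL-7-hyFc. They were digested with collagenase and DNase, and sorted for viable CD45+ TCRb+ CD8a+ cells before 5′ single-cell RNA and TCR sequencing. There was 1 library per group, the number of mice behind each was not given in the sources used here, and no untreated tumour belonged to this experiment. No difference below therefore has a replicate check, and the 95% intervals cover counting error only.

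IL-7 is a cytokine that keeps naive and memory T cells alive and lets them divide through the receptor chain Il7r and STAT5. A T cell engager is an antibody that binds CD3 on a T cell with one arm and a surface protein of a target cell with the other, here PD-L1, and so triggers T cells whatever their receptor recognises. CD8 T cells kill with granules that hold perforin and granzymes. Those that meet antigen for long in a tumour carry surface proteins such as the inhibitory receptor PD-1 and the enzyme CD39. PD-1 is the product of Pdcd1 and CD39 that of Entpd1. Cells that descend from 1 T cell share the same rearranged receptor, so the CDR3 sequences of the beta and alpha chains mark a clone.

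A clonotype here is the V gene and nucleotide CDR3 of the beta chain, together with those of the alpha chain with most UMIs. Only cells with 1 beta chain and 1 or 2 alpha chains were given a clonotype. The largest clonotype of each library is shown because it is the most expanded receptor there, followed by chains of the clonotypes found in both libraries. All are printed 5′ to 3′ with the first and last codon of the CDR3 in capitals.
rhIL-7-hyFc largest clonotype, beta (TRBV5): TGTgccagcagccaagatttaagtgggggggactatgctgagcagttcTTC
rhIL-7-hyFc largest clonotype, alpha (TRAV7D-2): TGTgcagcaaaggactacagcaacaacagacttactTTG
combination largest clonotype, beta (TRBV16): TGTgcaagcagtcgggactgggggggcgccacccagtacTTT
combination largest clonotype, alpha (TRAV7N-6): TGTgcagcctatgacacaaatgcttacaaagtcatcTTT
shared clonotypes 2 and 3, beta (TRBV17): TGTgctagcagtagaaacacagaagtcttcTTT
shared clonotypes 1 and 2, alpha (TRAV5-4): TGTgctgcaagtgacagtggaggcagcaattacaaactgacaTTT
shared clonotype 3, alpha (TRAV5-4): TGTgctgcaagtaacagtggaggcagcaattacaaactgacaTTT
shared clonotype 4, beta (TRBV5): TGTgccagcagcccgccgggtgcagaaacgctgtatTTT
The alpha chain of shared clonotype 4 is identical to that of the largest rhIL-7-hyFc clonotype.

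The retained cells had a median of 5475 UMIs and 1900 genes after rhIL-7-hyFc and 6439 UMIs and 2156 genes after the combination. The 14 T cell marker genes that took no part in the selection were within 1.5-fold of each other between the libraries, with Trac at 277 and 277 CPM (the gene's share of all UMIs of the retained cells, in parts per 1000000), Thy1 at 1346 and 1306 CPM and Lck at 650 and 606 CPM. The libraries stood apart in myeloid RNA: the last step, on Lyz2 and C1q, removed 3536 barcodes after rhIL-7-hyFc and 736 after the combination. Of the removed barcodes 1092 and 138 had 1 beta chain with 1 or 2 alpha chains, and they took no part in the clone sizes below. Cells with exactly 1 UMI of Lyz2 and C1q, just inside the limit, numbered 904 and 170, and those with 2, just outside, numbered 235 and 21. The 2 libraries shared 195 barcode sequences, 103 of them among the retained cells, and of the 47 with a receptor in both none had the same clonotype.

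Addition of the engager went with more RNA for the granzymes A and K, the killer cell receptor Klrg1 and the chemokines Ccl5 and Ccl1, and with less RNA for genes of naive and memory T cells, for Gzmm and for interferon-stimulated genes. Of 9026 genes with at least 5 CPM in either library, 140 (1.55%) were at least 1.5-fold higher with the combination and 326 (3.61%) at least 1.5-fold lower. At 2-fold, 26 were higher and 153 lower. The median gene differed by 0.06 on the log2 scale. In what follows, a measured gene has at least 5 CPM in either library, log2 ratios are of CPM plus 1, and higher and lower mean at least 1.5-fold, without a test.

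Among 19 measured cytotoxic granule genes, 2 were higher, 2 lower, and the list's median log2 ratio was -0.12. Gzma, the granule tryptase granzyme A (chromosome 13, 113093825 to 113100981, minus strand, GRCm38), had 228 CPM after rhIL-7-hyFc and 3018 CPM after the combination, 13.2-fold higher (95% interval 13.0 to 13.5). Gzmk, its neighbour (chromosome 13, 113171608 to 113225908, minus strand), lies 70626 bases away and had 35.9 and 161 CPM, 4.50-fold higher (4.27 to 4.73). Among the other granzymes, Gzmm (chromosome 10, 79689020 to 79695261, plus strand) had 42.0 and 15.3 CPM, 2.75-fold lower (2.56 to 2.96), and Gzmc was 1.66-fold lower at 1100 and 663 CPM. Gzmb, the main caspase-cleaving granzyme, had 2459 and 3117 CPM, a 1.27-fold difference, and Prf1, the pore protein perforin, had 308 and 230 CPM. The granzymes nearest to each other in sequence could share reads, and how such reads were counted was not given in the sources used here.

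**Figure D1:**
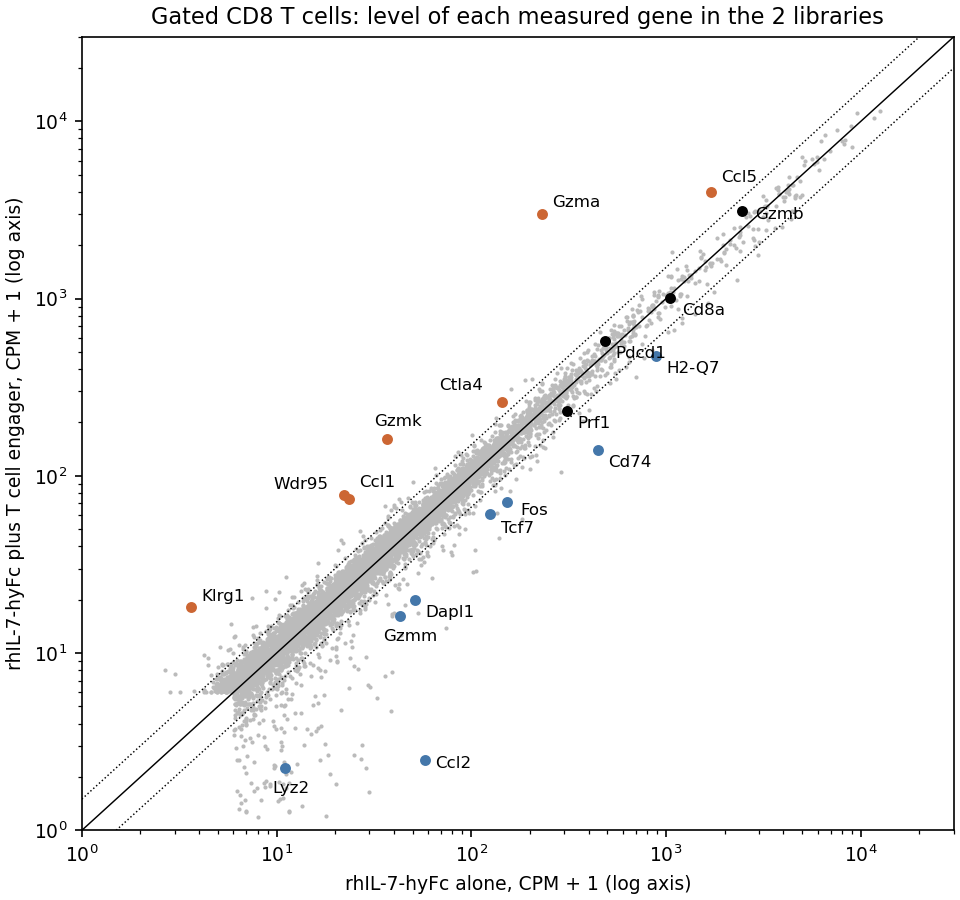
Level of each of the 9026 measured genes, as CPM plus 1 on log axes, in the rhIL-7-hyFc library (horizontal) and the combination library (vertical), with the line of equality, dotted lines at 1.5-fold and named genes coloured orange when above, blue when below and black when between those lines. Gzma, at 228 and 3018 CPM, lies farthest above the lines among the named genes, and Ccl2, at 56.9 and 1.5 CPM, farthest below.

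Of 22 measured genes of effector differentiation, 3 were higher and 1 lower (median 0.19). Klrg1, an inhibitory receptor of short-lived effector cells (chromosome 6, 122270596 to 122282882, minus strand), had 2.65 and 17.2 CPM, 6.51-fold higher (5.42 to 7.87). Itga4, the alpha chain of the integrin VLA-4, had 34.9 and 66.5 CPM, 1.90-fold higher (1.80 to 2.01). Id2, a transcriptional regulator of effector cells, went the other way at 224 and 149 CPM, 1.51-fold lower. Wdr95, a gene for a WD-repeat protein (chromosome 5, 149528679 to 149611894, plus strand), was among the genes with the highest ratios at 21.2 and 76.9 CPM, 3.64-fold higher (3.40 to 3.89).

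Genes of naive and memory T cells lay on the other side. Of 22 measured, 8 were lower, 0 were higher and the median was -0.43. Tcf7, which encodes TCF-1, a transcription factor that keeps memory and stem-like T cells (chromosome 11, 52252371 to 52283014, minus strand), had 124 and 59.7 CPM, 2.08-fold lower (2.00 to 2.16). Dapl1 was 2.67-fold lower at 50.3 and 18.8 CPM, and Id3, which restrains effector differentiation, 2.42-fold lower at 19.5 and 8.04 CPM. Ccr7, the receptor that guides T cells into lymph nodes, had 622 and 409 CPM. Il7r, the receptor for the cytokine both groups received, was level at 244 and 234 CPM, and of 23 measured IL-7 and STAT5 response genes 0 were higher and 5 lower (median -0.12), among them Osm at 2.35-fold and Pim2 at 1.55-fold.

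Of 22 measured exhaustion genes, 3 were higher and 0 lower (median 0.16). Ctla4, an inhibitory receptor for CD80 and CD86 (chromosome 1, 60887000 to 60915832, plus strand), had 142 and 259 CPM, 1.82-fold higher (1.77 to 1.88), and Tigit had 205 and 351 CPM, 1.71-fold higher. The third was Nrgn, and the other measured genes of this list differed by less than 1.5-fold. Pdcd1 had 482 and 573 CPM, Havcr2, the gene of TIM-3, 57.6 and 81.0 CPM, and Entpd1 49.3 and 69.1 CPM. Tox, a transcription factor of exhausted cells, had 38.0 and 45.5 CPM.

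The genes of the receptor that the engager binds were near level. Cd3e had 1238 and 1255 CPM and Cd8a 1047 and 1003 CPM, and of 26 measured genes of CD3 and proximal TCR signalling 1 was higher, Rasgrp2 at 41.4 and 73.5 CPM, and 0 lower (median 0.05). Without cells with an Mki67 or Top2a UMI the log2 ratio of Rasgrp2 was 0.29 in place of 0.81. Of 21 measured early genes of TCR signals, 0 were higher and 3 lower (median -0.15). Cd69 was among the 3 lower genes, at 141 and 84.6 CPM, 1.66-fold lower, and was not the most different of them. Nr4a1, a rapid target of TCR signals, was near level at 250 and 237 CPM. So was Tnfrsf9, the costimulatory receptor 4-1BB, at 515 and 528 CPM. Il2ra, the high-affinity IL-2 receptor chain CD25, had 48.8 and 69.9 CPM. The AP-1 and heat shock list had 5 of 19 measured genes lower and 0 higher (median -0.41), led by Atf3 at 44.4 and 17.7 CPM and Fos at 152 and 69.7 CPM. In cells with no UMI of any of 16 macrophage markers, the log2 ratio was -0.11 in place of -1.28 for Atf3, and -0.76 in place of -1.12 for Fos.

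Of 18 measured cytokine and chemokine genes, 2 were higher and 6 lower (median -0.34). Ccl5, a chemokine stored by memory and effector CD8 cells (chromosome 11, 83525778 to 83530518, minus strand), had 1704 and 3987 CPM, 2.34-fold higher (2.32 to 2.36), and Ccl1 had 22.5 and 72.9 CPM, 3.25-fold higher (3.04 to 3.47). Xcl1, which draws cross-presenting dendritic cells, had 157 and 80.8 CPM, and Ccl4 375 and 203 CPM. Cxcl10, an interferon-induced chemokine, had 135 and 60.6 CPM. Cxcl9 had the lowest ratio of the list, at 7.64 and 0.855 CPM. Macrophage markers were also lower with the combination, as given below, and the part of macrophage RNA in the lower genes of this list was not tested. Ifng, the gene of interferon gamma, had 146 and 117 CPM, within 1.5-fold.

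Interferon-stimulated genes were lower where they differed. Of 37 measured genes of the type I interferon response 9 were lower and 0 higher (median -0.41), with Isg15, a ubiquitin-like antiviral protein, at 1210 and 772 CPM, the antiviral gene Oasl2 at 78.6 and 34.8 CPM, and Irf7, a transcription factor of the interferon response, at 552 and 351 CPM. Of 36 measured genes of the interferon gamma response and MHC, 5 were lower and 0 higher (median -0.27). The medians in cells with no UMI of the 16 macrophage markers were -0.35 and -0.23. H2-Q7, a nonclassical MHC class I gene, had 891 and 472 CPM, but reads of H2-Q genes can be shared among near-identical copies.

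Division and metabolism genes differed little. Of 43 measured genes of DNA replication and S phase none was 1.5-fold apart (median 0.21), and of 46 of G2 and mitosis 1 was higher, the phosphatase gene Cdc25b at 1.58-fold (median 0.28). Mki67, a marker of dividing cells, had 69.5 and 87.0 CPM. Of 32 oxidative phosphorylation genes and 22 apoptosis genes none was 1.5-fold apart (medians 0.15 and 0.01). The glycolysis and hypoxia list had 3 of 22 lower, among them the glucose transporter gene Slc2a1 at 1.61-fold, and the amino acid list 1 of 17, Slc3a2 at 1.60-fold. Cytokine receptors had 3 of 23 lower, with Il6ra, the IL-6 receptor, at 16.5 and 4.82 CPM, costimulatory receptors 3 of 17 lower, and chemokine receptors and integrins 1 of 21 higher and 2 lower. Of 15 measured NK-type receptor genes 1 was higher and 5 lower, the lowest being Tyrobp and Fcer1g, which macrophages also express.

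**Figure D2:**
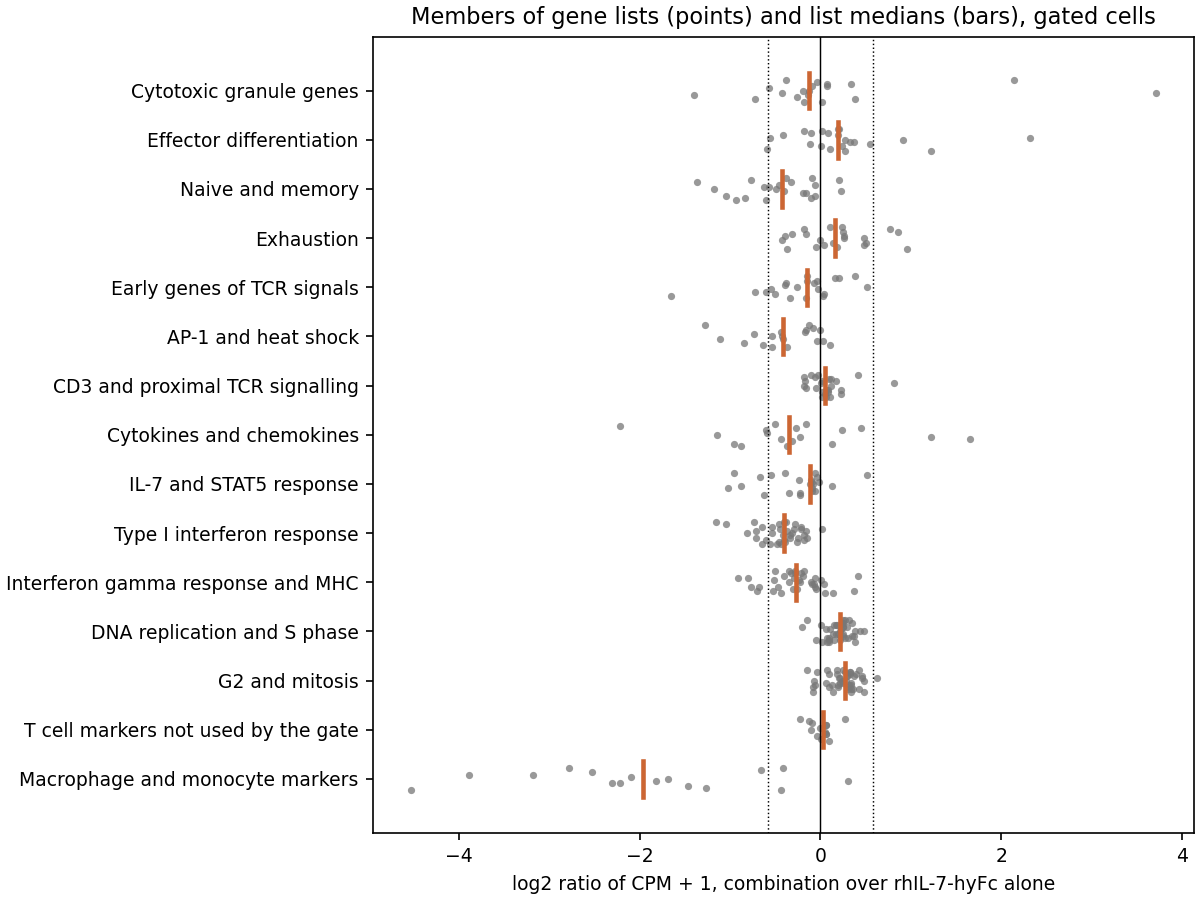
Log2 ratio (combination minus rhIL-7-hyFc, of CPM plus 1) of each measured gene in the gene lists, with the list median as a bar and lines at 1.5-fold. The naive and memory list has its median at -0.43 and the effector list at 0.19, while the T cell marker list lies at 0.03.

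RNA of other cell types differed along with these genes, and its part in lower genes such as Il6ra and Osm was not tested. Of 16 measured macrophage and monocyte markers 13 were lower with the combination and 0 higher (median -1.96, range -4.53 to 0.31), and the summed level of the 22 listed genes was 4670 and 3021 CPM, of which Ly6c2, also a T cell gene, made up 3259 and 2449 CPM. The defining markers were low in both libraries, with Lyz2, which the selection limits, at 10.1 and 1.24 CPM, Csf1r at 3.02 and 0.171 CPM and Adgre1 at 1.58 and 0.0395 CPM, and none of these was at 0. Ccl2, a macrophage chemokine, had 56.9 and 1.5 CPM, and Cd74, the MHC class II chaperone, 447 and 138 CPM. Of 7 measured dendritic cell markers 6 were lower and Itgax was higher at 7.87 and 21.4 CPM. Itgax went with Gzma in combination cells whose clonotype was seen once. It had 69.2 CPM in those with at least 5 Gzma UMIs and 3.26 CPM in those with none. After rhIL-7-hyFc the same split gave 8.96 and 5.72 CPM, the former from 7 UMIs. Of neutrophil markers, 3 of 3 measured were lower, with S100a9 at 19.2 and 0.816 CPM. Foxp3 of regulatory T cells had 1.28 and 1.92 CPM, and Ncr1 of NK cells 1.05 and 0.566 CPM. In cells with no UMI of the 16 macrophage markers the log2 ratio was 3.69 for Gzma (3.72 in all retained cells), 2.27 for Gzmk, 1.23 for Ccl5, -1.14 for Tcf7 and -1.62 for Gzmm.

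Shares of cells were compared after each cell was thinned to 3500 UMIs, which left out 910 of 7209 cells (12.6%) after rhIL-7-hyFc and 783 of 10108 (7.75%) after the combination. A Gzma UMI was present in 13.0% of cells (12.2 to 13.9) after rhIL-7-hyFc and in 34.0% (33.0 to 34.9) after the combination, against 16.6% and 36.4% without thinning. At least 5 Gzma UMIs were present in 3.64% and 26.2% of thinned cells. The comparator, barcodes of the same libraries with at least 5 Lyz2 and C1q UMIs and none of Cd3 or Cd8 genes, had medians of 5612 and 5938 UMIs and shares of 1.45% of 552 and 1.72% of 58. For Gzmk the thinned shares were 6.49% and 24.9% (9.71% and 32.5% unthinned), and for Ctla4 25.5% and 48.1% (34.6% and 63.6%). For Tcf7 they were 30.8% and 16.2% (39.9% and 21.6%), and for Gzmm 10.7% and 4.19% (13.9% and 7.19%). The comparator was at 0 and 0 for Gzmk, 0.362% and 0 for Ctla4, 1.27% and 0 for Tcf7 and 0.181% and 0 for Gzmm, where 0 of 58 allows up to 6.16%. Ccl5 had 53.0% and 64.8%, with a higher comparator at 34.2% and 8.62%.

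The clone size of a cell went with how far apart the libraries were. A beta chain with 1 or 2 alpha chains was found in 4617 cells (64.0%) after rhIL-7-hyFc and 6467 cells (64.0%) after the combination. Among cells whose clonotype was seen once in its library, 2704 and 3205 cells, Gzma had 183 and 5666 CPM, 30.9-fold higher with the combination (29.8 to 32.1). Among cells of clonotypes with 2 to 4 cells it had 391 and 1130 CPM, 2.89-fold higher. Among the 1560 and 2802 cells of clonotypes with at least 5 cells it had 257 and 274 CPM, a ratio of 1.07 (1.02 to 1.11). The sign of this last difference was not stable: the log2 ratio of 0.09 became -0.23 without the largest clonotype of each library and -0.20 without cells with an Mki67 or Top2a UMI. Cells with no such clonotype had 225 and 2978 CPM. The difference between clone size classes was not tested. Median UMIs per cell were 5025.5 and 6417 in the first class and 6522.5 and 6266.5 in the last, and thinned shares with at least 5 Gzma UMIs were 3.42% and 44.3% against 4.20% and 4.13%.

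Cells with at least 5 Gzma UMIs, without thinning, made up 4.73% (3.96 to 5.60) and 45.3% (43.6 to 47.0) of cells of clonotypes seen once. In clonotypes of 5 to 9 cells they made up 4.49% and 4.34%, and in those of 20 to 99 cells 9.0% and 4.70%. In the only rhIL-7-hyFc clonotype of at least 100 cells 0 of 135 cells reached it, which allows up to 2.70%, against 7.84% in the 4 combination clonotypes of that size. After the combination 1671 cells with a clonotype reached 5 Gzma UMIs, and they belonged to 1536 clonotypes. Of these cells 86.9% had a clonotype seen once, against 49.6% of all cells with a clonotype in that library. After rhIL-7-hyFc the 241 such cells belonged to 177 clonotypes and 53.1% were seen once, against 58.6% of all. The V genes of the 1452 cells seen once after the combination were spread out: the commonest beta call, one shared between TRBV12-2 and TRBV13-2, was in 9.78% of them and in 8.83% of the cells seen once with no Gzma UMI, and the commonest alpha gene, TRAV12-2, was in 5.85% and 4.91%.

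**Figure D3:**
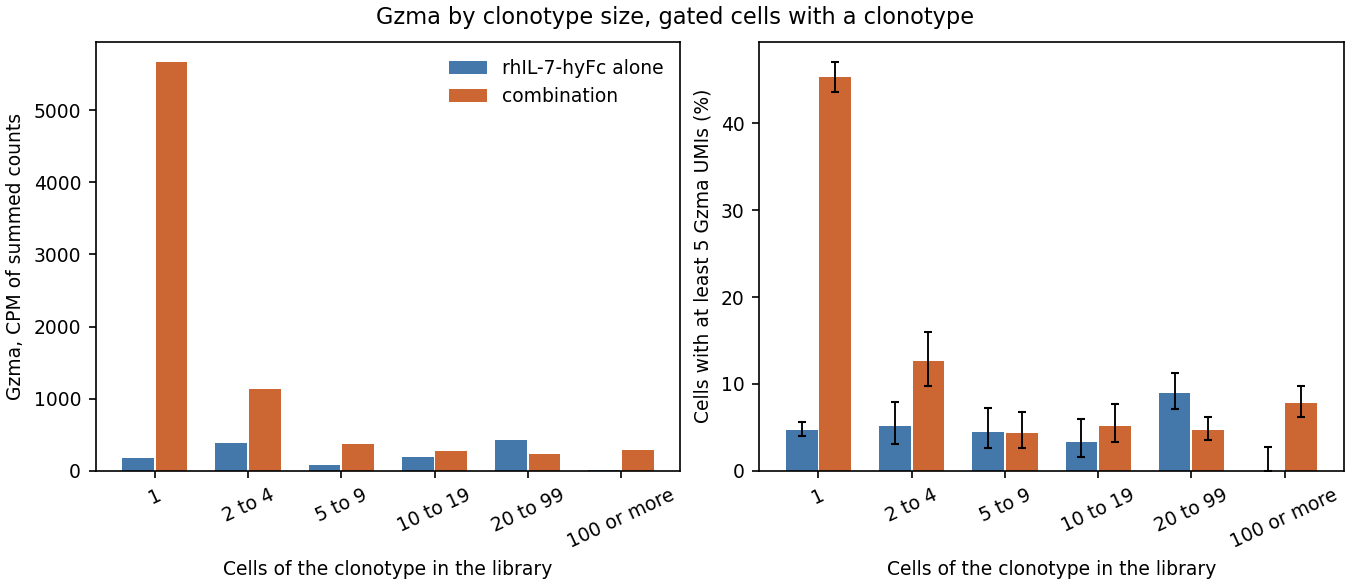
Gzma by the number of cells of the clonotype in its library, as CPM of summed counts (left) and as the share of cells with at least 5 Gzma UMIs in percent with 95% Clopper-Pearson intervals (right), for rhIL-7-hyFc alone in blue and the combination in orange. The shares stand at 4.73% and 45.3% where the clonotype was seen once and at 4.49% and 4.34% in clonotypes of 5 to 9 cells.

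Within clonotypes seen once the difference reached beyond Gzma. Of 8864 measured genes 536 (6.05%) were higher and 399 (4.5%) lower. Effector genes had 14 of 22 higher and 0 lower (median 0.75), with Klrg1 at 1.53 and 25.4 CPM (16.7-fold, 11 to 26.5) and Itga4 at 24.7 and 70.1 CPM. Exhaustion genes had 10 of 21 higher and 3 lower (median 0.54). Ctla4 had 43.6 and 226 CPM (5.17-fold), Havcr2 6.30 and 32.6 CPM (5.17-fold) and Entpd1 12.3 and 52.7 CPM (4.27-fold), whereas Tox had 18.6 and 9.53 CPM, 1.96-fold lower. Pdcd1 had 93.1 and 144 CPM, 1.55-fold higher.

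Granule genes in this class had 5 of 18 higher and 4 lower (median 0.00). Gzmk had 18.8 and 210 CPM (11.2-fold, 9.89 to 12.6) and Gzmb 1540 and 4195 CPM (2.72-fold, 2.69 to 2.76), while Gzmm had 81.2 and 25.6 CPM and Gzmf 116 and 52.8 CPM. Among the genes with the highest ratios in this class were Mt1, a metallothionein gene, at 18 and 86.0 CPM, Klrk1, the activating receptor NKG2D, at 83.2 and 228 CPM, and S100a4, a calcium-binding protein gene of memory cells, at 147 and 367 CPM. Il2ra had 16.1 and 49.8 CPM and Tnfrsf9 131 and 259 CPM. S phase genes had 24 of 43 higher and G2 and mitosis genes 29 of 45 higher, with 0 lower in either list (medians 0.58 and 0.65), and Mki67 had 47.0 and 84.2 CPM. Naive and memory genes had 13 of 24 lower and 0 higher (median -0.64), with Tcf7 at 240 and 110 CPM and Ccr7 at 971 and 595 CPM. Macrophage markers in these cells had 11 of 14 lower (median -1.45), and their summed level was 3982 and 3325 CPM.

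In clonotypes of at least 5 cells fewer of these genes were apart. Of 9089 measured genes 234 (2.57%) were higher and 292 (3.21%) lower. Effector genes had 3 of 22 higher and 3 lower (median -0.15), naive and memory genes 3 of 18 higher and 2 lower (median 0.01), and exhaustion genes 5 of 22 higher and 0 lower (median 0.09). Ctla4 had 262 and 281 CPM, Entpd1 91.2 and 93.5 CPM and Tcf7 9.12 and 10.8 CPM. Pdcd1, already at 900 CPM after rhIL-7-hyFc, had 1049 CPM after the combination. Gzmb lay in the other direction from the clonotypes seen once, at 3684 and 2302 CPM, 1.60-fold lower (1.58 to 1.62). Genes that were higher in expanded clones included Gzmk at 48.8 and 122 CPM (2.49-fold, 2.27 to 2.73), Ccl1 at 44.9 and 143 CPM (3.18-fold), Nrgn, a calmodulin-binding protein gene, at 285 and 561 CPM, and Tox at 57.4 and 91.5 CPM (1.59-fold). Without the largest clonotype of each library the log2 ratio of Gzmk in this class was 0.72 in place of 1.30. Macrophage markers had 13 of 16 lower (median -1.95, summed level 4892 and 2818 CPM).

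**Figure D4:**
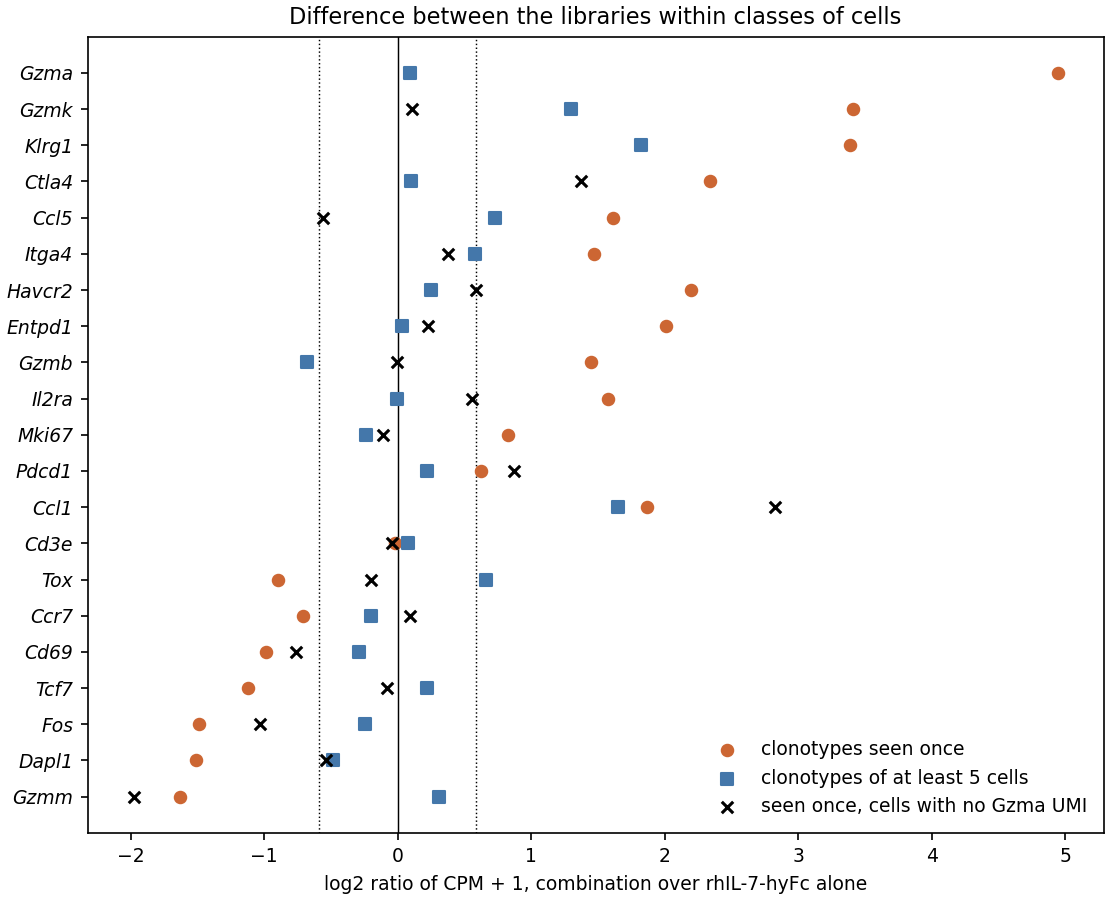
Log2 ratio of CPM plus 1 (combination over rhIL-7-hyFc alone) of named genes in cells of clonotypes seen once (circles), of clonotypes of at least 5 cells (squares) and seen once with no Gzma UMI (crosses, shown where a gene has at least 5 CPM), with dotted lines at 1.5-fold. Gzmb lies at 1.45 in clonotypes seen once and at -0.68 in clonotypes of at least 5 cells.

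The clonotypes seen once after the combination split by Gzma into 1452 cells with at least 5 UMIs (45.3%), 224 with 1 to 4 and 1529 with none (47.7%). Because Gzma chose these cells, their other genes are given as a description, and the cells with at least 5 UMIs also had more RNA, with a median of 7643 UMIs against 5559. Cells with at least 5 Gzma UMIs had 374 CPM of Gzmk against 13.3 CPM in cells with none, 45.7 against 1.20 CPM of Klrg1 and 6588 against 1325 CPM of Gzmb. They had 9240 against 1113 CPM of Ccl5 and 16.3 against 226 CPM of Tcf7. Genes of surface proteins did not follow 1 direction. Entpd1 had 85.3 against 13.6 CPM and Ctla4 311 against 117 CPM, but Pdcd1 had 115 against 181 CPM and Il7r 109 against 330 CPM. Tox had 4.07 against 16.7 CPM, and Mki67 119 against 38.2 CPM. After rhIL-7-hyFc the 128 cells with at least 5 Gzma UMIs had 133 CPM of Gzmk, 3836 CPM of Gzmb and 164 CPM of Tcf7, against 12.2, 1327 and 239 CPM in the 2230 cells with none.

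Cells seen once with no Gzma UMI were near each other between the libraries in several of these genes. Gzmb had 1327 CPM after rhIL-7-hyFc and 1325 CPM after the combination, a ratio of 1.00 (0.976 to 1.02), Gzmk had 12.2 and 13.3 CPM (ratio 1.08, 0.85 to 1.38) and Tcf7 239 and 226 CPM. Of 8884 measured genes 291 (3.28%) were higher and 204 (2.3%) lower. Effector genes had 1 of 20 higher and 2 lower (median -0.05) and naive and memory genes 0 of 24 higher and 3 lower (median -0.14). Exhaustion genes had 8 of 22 higher and 0 lower (median 0.22), and Ctla4 had 44.6 and 117 CPM, 2.63-fold higher (2.37 to 2.92). Pdcd1 had 98.5 and 181 CPM, 1.84-fold higher (1.70 to 1.98), and Ccl1 3.87 and 33.5 CPM. Gzmm had 74.4 and 18.2 CPM and Ccl5 1641 and 1113 CPM, both less with the combination. Macrophage markers in these cells had 12 of 14 lower (median -1.89). This subset was defined after the class values had been seen. It was also chosen by Gzma, and Gzmk, Gzmb and Tcf7 differed by Gzma within the combination. The choice therefore bears on these genes, and their nearness here is a description.

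A second division used PD-1 and CD39, which are used as markers of tumour-reactive CD8 cells, at the RNA level. Cells with no UMI of Pdcd1 or Entpd1 made up 49.4% of cells after rhIL-7-hyFc (3558) and 29.3% after the combination (2965), and 52.2% and 37.5% of thinned cells. Of 8818 measured genes in these cells, 480 (5.44%) were higher and 314 (3.56%) lower. Gzma had 159 and 3694 CPM in them (23.3-fold higher), Gzmk 10.9 and 128 CPM, Ctla4 25.5 and 167 CPM and Tcf7 256 and 156 CPM. In the 3651 and 7143 cells with a UMI of either gene, 166 of 9079 genes (1.83%) were higher and 341 (3.76%) lower, and Gzma had 274 and 2798 CPM (10.2-fold higher). After thinning, 36.7% of combination cells with neither and 19.9% of those with either had at least 5 Gzma UMIs, against 2.86% and 4.49% after rhIL-7-hyFc. The 2 divisions overlap, since 87.9% and 70.0% of thinned cells seen once had neither gene, against 7.63% and 6.01% of cells in clonotypes of at least 5 cells.

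The repertoire was more concentrated after the combination. The library of rhIL-7-hyFc alone held 2938 clonotypes and that of the combination 3516, and in samples of 4617 cells the combination is expected to show 2589. Expanded clonotypes, with 2 cells or more, made up 41.4% of cells (40.01 to 42.9) and 50.4% (49.2 to 51.7), and the 10 largest held 11.8% and 19.6%. The largest had 135 cells (2.92%) and 475 cells (7.34%, 6.72 to 8.01). At least 20 cells were found in 24 and 35 clonotypes, among 4617 and 6467 cells with a clonotype. Only the number of clonotypes was brought to equal cell numbers. The expanded share and the number of clonotypes with at least 20 cells can rise with the cells sampled, so part of their difference may come from sampling. Over all barcodes passing the gene and mitochondrial limits, the expanded share after rhIL-7-hyFc was higher than among the retained cells, as given in the closing sections. The mice behind each library may differ in number, so the comparison of repertoires cannot tell treatment from animal.

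**Figure D5:**
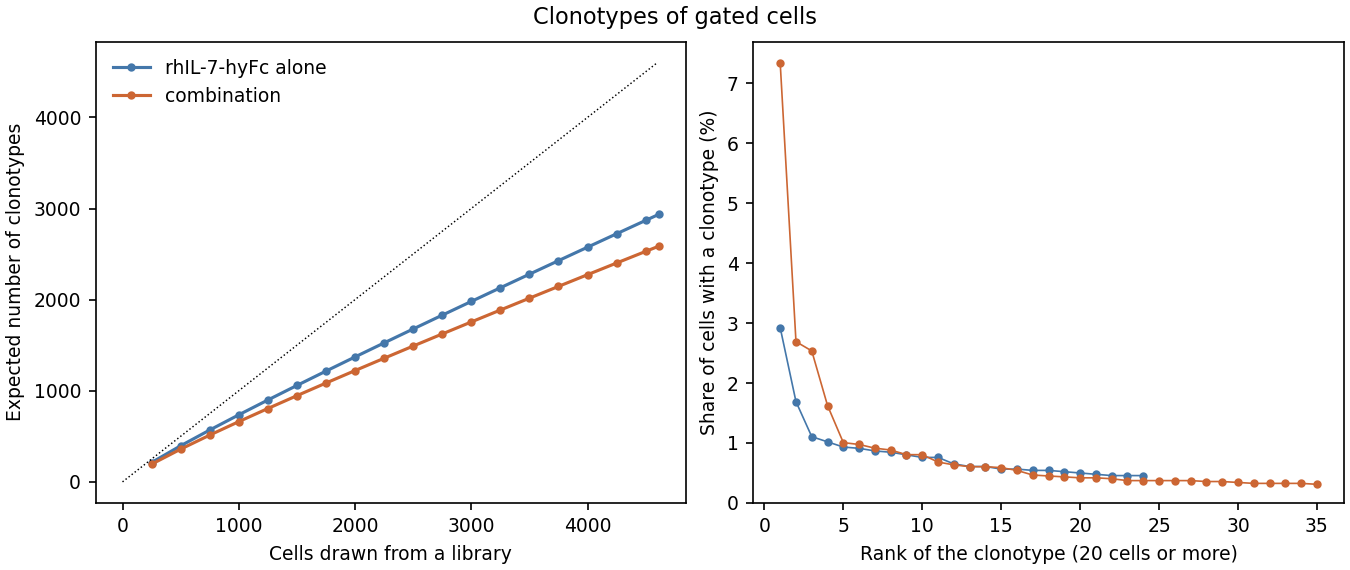
Expected number of clonotypes against the number of cells drawn from a library (left, the dotted line marks 1 clonotype per cell) and share of cells with a clonotype, in percent, of each clonotype of at least 20 cells by rank (right), for rhIL-7-hyFc alone in blue and the combination in orange. At 4617 cells the curves reach 2938 and 2589 clonotypes, and the largest clonotypes hold 2.92% and 7.34% of cells.

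Large clones differed among themselves in granzyme RNA. Over clonotypes of at least 20 cells, Gzma ranged from 0 to 1810 CPM after rhIL-7-hyFc (median 217) and from 4.91 to 995 CPM after the combination (median 132), so the ranges overlapped. Gzmb had medians of 3337 CPM (853 to 6132) and 1706 CPM (608 to 5165). The largest rhIL-7-hyFc clonotype, with TRBV5 and TRAV7D-2, had 9.46 CPM of Gzma beside 5399 CPM of Gzmb. The next 4, of 78, 51, 47 and 43 cells, used TRBV16, TRBV17, TRBV26 and TRBV10 and had 657, 1810, 722 and 25.4 CPM of Gzma. The largest combination clonotype, with TRBV16 and TRAV7N-6, had 447 CPM of Gzma, 308 CPM of Gzmk, 2955 CPM of Gzmb and 5559 CPM of Ccl5. The next 4, of 174, 164, 105 and 65 cells, used TRBV26, TRBV2, TRBV13-1 and TRBV26 and had 88.0, 201, 11.7 and 4.91 CPM of Gzma.

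The libraries had 6 clonotypes in common, 0.204% of the rhIL-7-hyFc clonotypes and 0.171% of those of the combination, with 107 cells (2.32%) and 36 cells (0.557%). Of these, 4 had at least 2 cells in each library, and chains of them are among the sequences printed above. Shared clonotypes 1 and 2 had 21 and 51 cells after rhIL-7-hyFc and 15 and 14 after the combination. They had the same alpha chain and beta chains of TRBV17 whose CDR3s differed in nucleotide sequence, and whether the encoded proteins differ is not given here. Shared clonotype 3, of 5 and 3 cells, had the beta chain of clonotype 2 and an alpha chain that differed from that of clonotype 2 by G13A, counted from 1 at the first base of the CDR3. Receptors of TRBV17 and TRAV5-4 with CDR3s of 33 and 45 bases made up 9 clonotypes and 98 cells (2.12%) after rhIL-7-hyFc, and 6 clonotypes and 57 cells (0.881%) after the combination. These near-identical receptors are not independent members.

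The 3 shared TRBV17 clonotypes together had 1237 CPM of Gzma in 77 cells after rhIL-7-hyFc (684 UMIs) and 276 CPM in 32 cells after the combination (62 UMIs). Gzmb had 5236 and 1622 CPM in the same cells, and Gzmk 127 and 147 CPM. Of these, clonotype 2 held 644 of the 684 Gzma UMIs after rhIL-7-hyFc and 60 of the 62 after the combination, and its share of the cells differed, 51 of 77 against 14 of 32. Taken singly, clonotype 2 had 1810 and 640 CPM of Gzma, clonotype 1 had 251 and 19.4 CPM (40 and 2 UMIs), and clonotype 3 had 0 UMIs in both libraries. Gzmb had 5746 and 1003 CPM in clonotype 2, 5235 and 2559 CPM in clonotype 1, and 473 and 249 CPM in clonotype 3 (18 and 7 UMIs). Shared clonotype 4 had 28 and 2 cells. With 1 Gzma UMI in each library (3.86 and 35.1 CPM), it gave no comparison. Its alpha chain, counted where the V gene call was TRAV7D-2, occurred with 2 beta chains in 163 cells after rhIL-7-hyFc and with 5 beta chains in 39 cells after the combination, all of TRBV5. The same alpha CDR3 with the call TRAV10N and a beta chain of TRBV2 made up another combination clonotype, of 21 cells.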

How the data were processed

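CD8 T cells of 2 expression libraries and their 2 TCR libraries were analysed. The deposited matrices hold raw UMI counts, made with Cell Ranger 6.1.2 per the file headers. The submitters' processing notes name the build GRCm38. Contigs with UMI counts make up the deposited TCR tables. Their software version, and how barcodes were kept upstream, are not given in the sources used here. Counts of the retained cells were summed per library, divided by their total and expressed as CPM (Python 3.11.15, numpy 2.4.6, scipy 1.17.1, pandas 2.3.3). Ratios have conditional binomial intervals, levels Poisson and shares Clopper-Pearson intervals, at 95%. With 1 library per group no test across genes was made. TMM scaling came from edgeR 4.0.16. Scripts were tested on simulated data. No doublet caller was run: barcodes with more than 1 TRB or 2 TRA, 410 (5.69%) and 736 (7.28%), were left out as an alternative. Named genes were, at 50 CPM or more in either library, the 12 highest and 12 lowest ratios, the 3 most different measured members of each list, and 20 always named. The same ranking was made within clonotypes seen once and of at least 5 cells, and other genes were chosen after their values were seen. The 5 largest clonotypes per library and those shared with at least 2 cells in each were named. The members and lists were chosen with earlier results of these data known. Coordinates are from GENCODE M21, in which 108 of 108 named genes matched by identifier. Some genes and 1 receptor chain are not reported here.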

Additional observations from a re-analysis of the deposited data

Results flagged for a closer look

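The log2 ratio of Gzmb, the combination over rhIL-7-hyFc, was 1.45 in cells of clonotypes seen once and -0.68 in cells of clonotypes of at least 5 cells. Tox lay in opposite directions too, at -0.90 in clonotypes seen once and 0.66 in clonotypes of at least 5 cells. With 1 library per group, neither difference between the classes was tested.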

How the results depend on the processing

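No paired analysis was possible because each group had 1 library. Counting each clonotype once gave 433 higher genes, thinning 216, and a minimum of 20 CPM 54 higher and 131 lower. With no UMI of the 16 macrophage markers 214 genes were lower, the dendritic cell marker median was 0.50 (2 genes left) and Igkc was at 0.45, both reversed. TMM scaling shifted log2 ratios by -0.04 and gave 114 higher and 360 lower. The share of cells with Gzma was 7.67% and 29.7% at 2 UMIs or more, 16.6% and 36.4% without thinning, and 32.1% after the combination in cells with a TCR. The share of rhIL-7-hyFc cells in clonotypes of at least 2 cells was 43.1% by the beta chain alone, 45.4% over all barcodes passing the gene and mitochondrial limits, and 39.9% with no Lyz2 or C1q UMI. The cause of each move was not tested, beyond the fewer genes that a 20 CPM minimum leaves.

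Gzma had a log2 ratio from 3.28 to 4.47 over the alternatives. With each clonotype counted once, the log2 ratio was 1.96 for Ctla4 (0.86 over all cells), 1.16 for Gzmb (0.34), 1.55 for Havcr2 (0.49), 1.59 for Entpd1 (0.48) and -0.38 for Tox (0.26). Over all alternatives 1000 gene ratios stayed within their counting error and 539 moved past it. Among the named and listed genes recomputed that were at least 1.5-fold apart, only Igkc changed sign, and genes nearer to each other, such as Tox, could change sign as well. Within clonotypes of at least 5 cells, alternatives chosen after seeing the data gave Gzma 0.51 with no UMI of the 16 markers, -0.20 without cells with an Mki67 or Top2a UMI and -0.23 without the largest clonotypes, against 0.09. In clonotypes seen once they gave 4.85 to 5.10.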

Other observations

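Of 48 listed ribosomal protein genes 4 were lower with the combination, among them Rps12 at 2301 and 1267 CPM, Rplp1 at 2977 and 1767 CPM and Rpl12 at 1206 and 729 CPM, while the list's median log2 ratio was -0.09. Rps2 and Rplp0 lay at 0.34 and 0.34 on the log2 scale. Ribosomal protein genes have many near-identical pseudogene copies, so reads may be split among them. Rbm3 and Cirbp, both genes of cold-inducible RNA-binding proteins, were higher at 1070 and 1840 CPM and at 64.4 and 109 CPM.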
